A study of Mus musculus with 8 samples.

Results

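The gene set described here holds 9 genes of the epithelial anchoring machinery, out of 22026 genes named in the deposited tables. Itga6, Itgb4 and Plec encode hemidesmosome proteins, and Lama3, Lama5, Lamb1, Lamb2, Lamb3 and Lamc1 encode laminin chains. They were chosen by name, with earlier results of these data known, and the reads of all transcripts bearing a gene's name were added together. The 9 genes were followed through 8 bulk RNA-seq libraries of 4T1 and TS/A, a pair of breast cancer cell lines from BALB/c mice. The sample characteristics give each line an empty virus vector or a vector carrying Gpr56, now called Adgrg1, an adhesion G protein-coupled receptor with type III collagen as a known ligand. The 4 groups (each line with either vector) had 2 libraries each. All cells grew in RPMI with 10% FCS, RNA was taken after 72 h, and the design text puts the Gpr56-transduced cells on type III collagen. The sample titles call the same groups Emp_Control and Emp_ColIII, so vector and collagen culture cannot be told apart from the labels. Groups below follow the characteristics. The sources used here do not give the promoter driving the transgene, or whether a transduced line was 1 clone or a pool. No label says whether the 2 libraries of a group are separate cultures, and p-values below therefore reflect only how far these samples spread, which may be technical.

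Hemidesmosomes rivet an epithelial cell to the basement membrane. Integrin α6β4, the product of Itga6 and Itgb4, binds laminin outside the cell, and inside the cell the long cytoplasmic tail of the β4 subunit binds plectin, the product of Plec, which links it to keratin filaments. Laminins are heterotrimers of 1 α, 1 β and 1 γ chain. The α3 and β3 chains, from Lama3 and Lamb3, belong to the laminin that is the main hemidesmosome ligand in epidermis and mammary gland, called the epidermal laminin here. Lama5 with Lamb1 or Lamb2 and Lamc1 gives the laminins found in most epithelial and vascular basement membranes.

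Depth ran from 10510569 reads (4T1 Gpr56 library 2) to 25959142 reads (TS/A Gpr56 library 1). As a check of the labels, Adgrg1 stood at 0.82 and 0.89 RPKM (reads scaled to transcript length and library depth) in 4T1 empty and at 24.7 and 27.6 RPKM in 4T1 Gpr56. In TS/A it stood at 10.1 and 4.47 RPKM in the empty pair, against 6.62 and 3.68 RPKM in the Gpr56 pair, so Adgrg1 did not separate the TS/A labels, and that group is called TS/A labelled Gpr56. The summed level of 9 epithelial markers was 1736 to 2565 CPM (reads scaled to a fixed library total) in the 4T1 libraries and 205 to 270 CPM in the TS/A libraries. In TS/A that sum was mostly Krt18 and Krt19, and Cdh1 and Epcam, which define epithelial cells, were at or near 0 (0 to 0.04 RPKM for Cdh1 and 0 to 0.05 RPKM for Epcam). One pair of libraries stood apart. Between the TS/A empty libraries, the log2 difference (library 1 minus library 2) changed with transcript length, from a median of -0.57 among genes with transcripts under 1 kb to 0.62 among those over 7 kb, while the medians of the other 3 groups lay between -0.05 and 0.05 in every length class. All 9 genes have long transcripts, from a mean of 4073 nt for Lamb3 to 14896 nt for Plec. Results that use the TS/A empty libraries are therefore also given without each of them where that alters the result. Such a fit leaves 1 library in that group and takes its spread from the other groups.

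**Figure D1:**
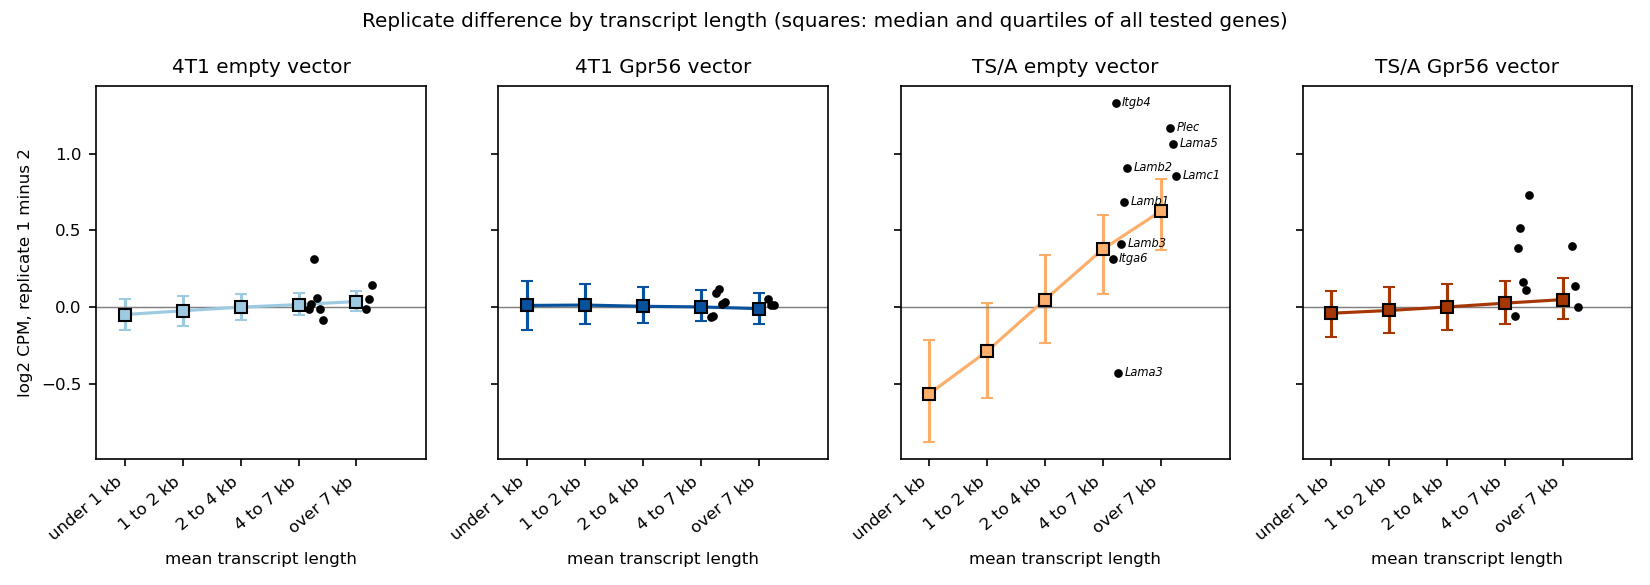
Difference in log2 CPM between library 1 and library 2 of each group (vertical axis) against mean transcript length (horizontal axis). Squares with bars are the median and quartiles of all tested genes in a length class; black points are the 9 genes. In TS/A empty the medians climb from -0.57 to 0.62, against -0.05 to 0.04 in 4T1 empty and -0.04 to 0.05 in TS/A labelled Gpr56, and in TS/A empty Itgb4 lies at 1.33 and Plec at 1.17.

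RefSeq promoter sequence (GRCm38.p6) was matched for 4 of the 9 genes, Lamb3, Lamb1, Lama5 and Lamb2; it was not matched for Itga6, Itgb4, Plec, Lama3 and Lamc1. Of these, 3 are shown because their genes had contrasting patterns in the comparisons below: Lamb3 was about 10 times lower in TS/A than in 4T1, Lamb1 less than 1.5 times lower, and Lama5 rose with the Gpr56 vector in 4T1 without the large gap between lines. Each stretch is written 5′ to 3′ on the gene's own strand and ends before the annotated start of a transcript. For Lamb3 that transcript is Lamb3-201, which held 93.1% to 100% of the Lamb3 reads in each library. The gene itself begins further 5′, at position 193207699, and Lamb3-209 starts at 193207725, so the Lamb3 stretch lies inside the gene's span. The Lamb1 stretch ends before Lamb1-205, which starts at 31265234. Lamb1-201, which held 87.0% to 98.5% of the Lamb1 reads, starts further 3′, at 31265293. Capitals mark matches, on either strand, to the letters GGGCGG (the GC box, an Sp-family motif) or CAGGTG (an E-box); the letters TGANTCA (the AP-1 motif) were searched too. No 2 matches overlapped in the printed stretches. The stretches are chr1:193301744-193301992 on the plus strand for Lamb3, chr12:31265043-31265233 on the plus strand for Lamb1, and chr2:180225860-180226109 on the minus strand for Lama5.
Lamb3: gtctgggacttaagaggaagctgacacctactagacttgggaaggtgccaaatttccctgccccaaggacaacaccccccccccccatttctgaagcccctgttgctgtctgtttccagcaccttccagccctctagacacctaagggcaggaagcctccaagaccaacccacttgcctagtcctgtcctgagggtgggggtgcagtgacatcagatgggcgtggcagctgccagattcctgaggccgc
Lamb1: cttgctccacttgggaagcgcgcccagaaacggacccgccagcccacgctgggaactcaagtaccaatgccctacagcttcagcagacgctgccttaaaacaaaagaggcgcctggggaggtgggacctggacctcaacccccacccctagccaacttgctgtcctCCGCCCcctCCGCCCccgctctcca
Lama5: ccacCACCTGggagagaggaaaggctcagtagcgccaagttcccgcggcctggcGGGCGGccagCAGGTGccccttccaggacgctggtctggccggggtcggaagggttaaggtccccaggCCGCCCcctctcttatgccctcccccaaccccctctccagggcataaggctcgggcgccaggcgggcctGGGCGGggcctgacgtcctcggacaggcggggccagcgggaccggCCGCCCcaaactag
The Lamb3 stretch of 249 bases held no match to the 3 motifs. RefSeq has another Lamb3 start 249 bases downstream, whose promoter is not shown and held 1 E-box. The Lamb1 stretch of 191 bases held 2 GC boxes, and the Lama5 stretch of 250 bases held 4 GC boxes and 2 E-boxes. The promoter of Lamb2, a gene higher in TS/A than in 4T1, is not shown and held no match to the 3 motifs. Among 32851 RefSeq mouse promoters of 250 bases, 32.7% held a GC box, 17.2% an E-box and 6.75% the AP-1 letters. These matches describe the sequence only, and no factor binding was measured.

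The α6 subunit, Itga6 (chr2:71745616-71858416, GRCm38), was among the most evenly expressed of the 9 genes. It stood at 191 and 193 TMM-scaled CPM in 4T1 empty, 213 and 223 in 4T1 Gpr56, 256 and 206 in TS/A empty, and 213 and 222 in TS/A labelled Gpr56. Both 4T1 Gpr56 libraries lay above both 4T1 empty libraries, and the lines overlapped. Its partner Itgb4 (chr11:115974709-116008412), the subunit found only in α6β4, moved much more. Itgb4 stood at 50.0 and 49.3 CPM in 4T1 empty, 92.5 and 96.3 in 4T1 Gpr56, 40.6 and 16.1 in TS/A empty, and 25.1 and 19.2 in TS/A labelled Gpr56. It was highest in both 4T1 Gpr56 libraries, and all TS/A libraries lay below all 4T1 libraries. Plec (chr15:76170974-76232574), the cytolinker, stood at 346 and 350 CPM in 4T1 empty, 458 and 443 in 4T1 Gpr56, 491 and 219 in TS/A empty, and 302 and 229 in TS/A labelled Gpr56. The TS/A empty pair spanned all the other libraries.

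Of the α3 and β3 chain genes, Lama3 (chr18:12333819-12583013) showed the wider range. Lama3 stood at 31.1 and 24.9 CPM in 4T1 empty, 48.4 and 45.5 in 4T1 Gpr56, 0.574 and 0.808 in TS/A empty, and 0.571 and 0.369 in TS/A labelled Gpr56. The TS/A values rest on 8 to 15 reads a library, against 485 to 1033 reads in 4T1. Lamb3 (chr1:193207699-193343878) stood at 108 and 103 CPM in 4T1 empty, 183 and 168 in 4T1 Gpr56, 12.5 and 9.37 in TS/A empty, and 16.4 and 14.6 in TS/A labelled Gpr56. Neither pair of vector groups overlapped for Lamb3, and the lines were far apart.

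The chains of the widespread laminins varied less. Lama5 (chr2:180176373-180225859) stood at 277 and 267 CPM in 4T1 empty, 339 and 335 in 4T1 Gpr56, 304 and 145 in TS/A empty, and 194 and 177 in TS/A labelled Gpr56. Lamb1 (chr12:31265234-31329644) stood at 542 and 548 CPM in 4T1 empty, 537 and 530 in 4T1 Gpr56, 479 and 298 in TS/A empty, and 380 and 351 in TS/A labelled Gpr56. All TS/A values of Lamb1 lay below all of 4T1, whereas the highest TS/A value of Lama5 lay above 4T1 empty. Lamb2 (chr9:108479736-108490530), the β chain of synaptic and glomerular laminin, stood at 18.6 and 19.7 CPM in 4T1 empty, 22.3 and 21.8 in 4T1 Gpr56, 47.5 and 25.3 in TS/A empty, and 37.9 and 22.8 in TS/A labelled Gpr56. Lamb2 was the only 1 of the 9 genes with every TS/A library above every 4T1 library. Lamc1 (chr1:153218922-153332786), the common γ chain, stood at 300.4 and 272 CPM in 4T1 empty, 274 and 272 in 4T1 Gpr56, 351 and 194 in TS/A empty, and 258 and 258 in TS/A labelled Gpr56. Its groups overlapped in both lines and between lines. Of other laminin chain genes, Lama1 had 0 reads in every library, Lama2 and Lama4 had at most 3 reads, and Lamc3 had 5 to 21 reads.

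**Figure D2:**
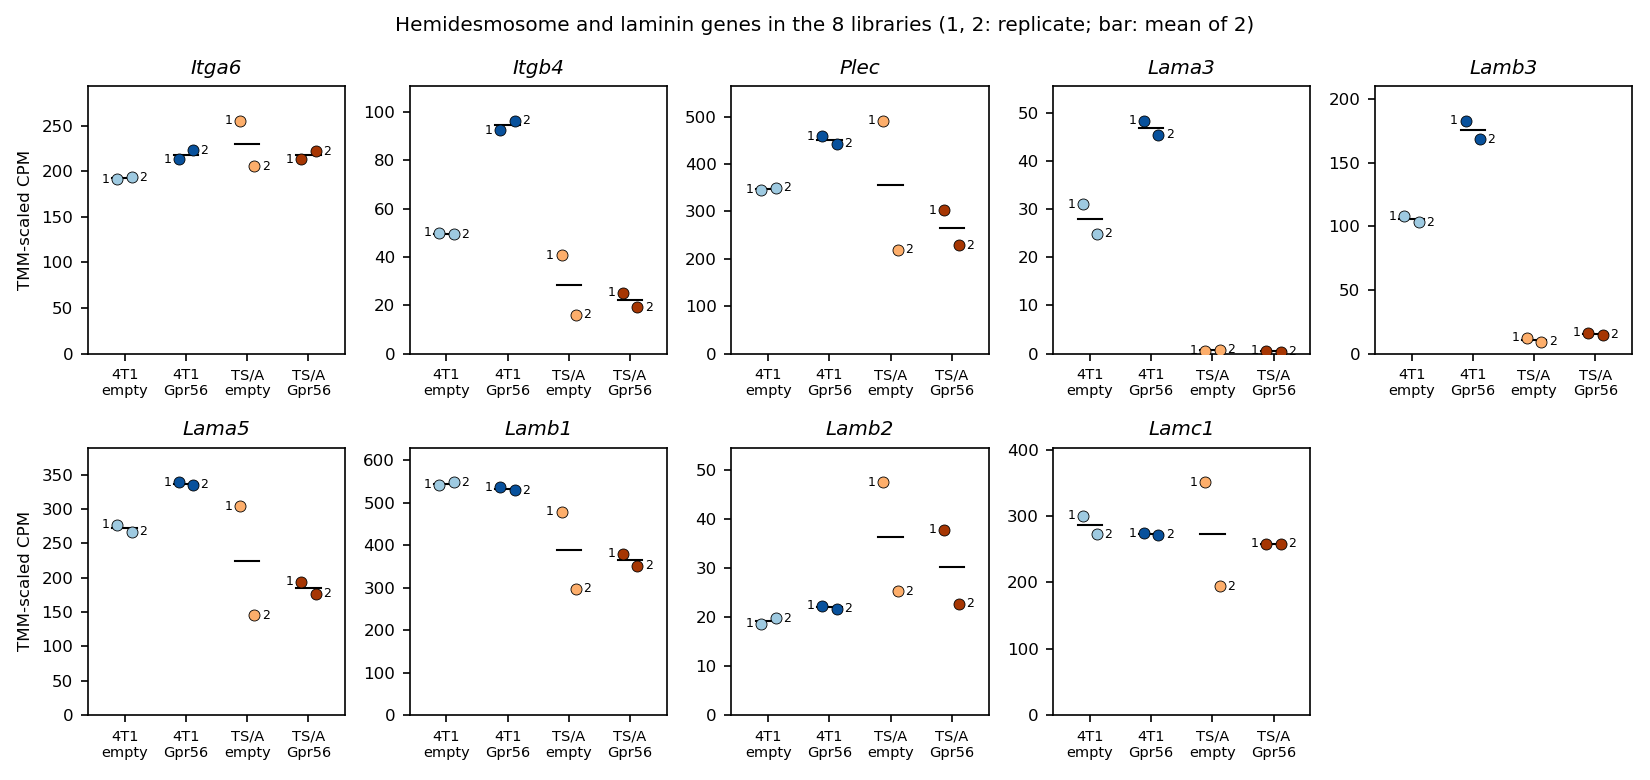
TMM-scaled CPM (vertical axes, each from 0) of the 9 genes in the 4 groups; points are single libraries numbered by replicate and bars are the mean of 2. Itgb4, Lama3, Lamb3 and Lama5 are highest in both 4T1 Gpr56 libraries. The TS/A empty pair is wide apart for Plec (491 and 219 CPM) and Lama5 (304 and 145 CPM).

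Per transcript length, Lamb1 led in both lines, with a median of 88.2 RPKM over the 4 libraries of 4T1 (lowest 87.8, highest 88.9) and 60.4 RPKM in TS/A (lowest 47.6, highest 83.1). In 4T1 the order of median RPKM below Lamb1 was Itga6 (44.5), Lamc1 (38.7), Lamb3 (32.2), Lama5 (25.5), Plec (25.2), Itgb4 (11.9), Lama3 (6.45) and Lamb2 (3.79). Neighbours from Itga6 to Plec overlapped in range, as did Itgb4, Lama3 and Lamb2, whereas Lamb1 and Plec did not overlap with the gene next below. In TS/A the order was Lamb1, Itga6 (48.2), Lamc1 (36.1), Plec (17.4), Lama5 (15.5), Lamb2 (5.72), Itgb4 (3.72), Lamb3 (3.22) and Lama3 (0.0896). Here only the steps from Lama5 to Lamb2 and from Lamb3 to Lama3 were wider than the ranges. Lamb3 thus ranked the fourth of the 9 genes in 4T1 and the eighth in TS/A. Summed RPKM adds all transcripts of a gene, and short transcripts with few reads weigh in it, as for Lamb2 and Lamc1.

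**Figure D3:**
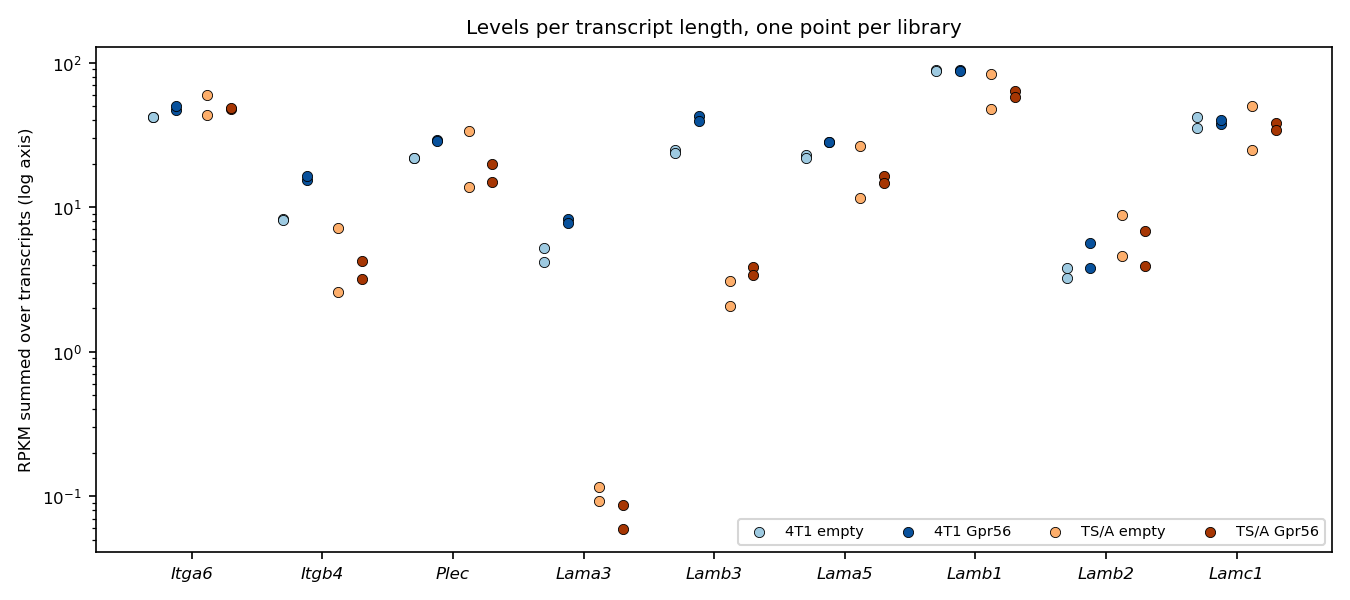
RPKM summed over the transcripts of each gene (vertical log axis), 1 point per library and colours by group. Lamb1 is highest in both lines, and Lama3 drops from between 4.15 and 8.24 RPKM in 4T1 to between 0.0589 and 0.115 RPKM in TS/A.

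The first question was which of these genes differed with the Gpr56 vector in 4T1. Of the 9 genes, 7 were higher in both Gpr56 libraries than in both empty libraries (29.5% of 11970 tested genes were higher in this way), and 1, Lamb1, was lower in both (30.4% of tested genes). In the fit of the 4T1 libraries alone, 6 of 9 passed an adjusted p of 0.05 as higher, where 11.5% of 11361 genes were called higher, and 0 of 9 as lower, where 11.3% of genes were. Those 6 were Itgb4, Lama3, Lamb3, Plec, Lama5 and Itga6, that is all 3 hemidesmosome genes, both of the 9 that belong to the epidermal laminin, and the α5 chain. Lamb1, Lamb2 and Lamc1 did not pass.

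Itgb4 rose most, 1.90-fold (log2 0.92, SE 0.06, edgeR adjusted p = 2.1e-07 in 4T1 alone). Lama3 rose 1.69-fold (log2 0.75, SE 0.10, edgeR adjusted p = 8.6e-05), and Lamb3 rose 1.67-fold (log2 0.74, SE 0.06, edgeR adjusted p = 1.0e-06). Plec rose 1.30-fold (log2 0.37, SE 0.05), Lama5 1.24-fold (log2 0.31, SE 0.05) and Itga6 1.13-fold (log2 0.18, SE 0.06, edgeR adjusted p = 0.029). Itga6 was the weakest of these calls: edgeR's adjusted p was 0.21 or 0.18 without 1 of the 4T1 empty libraries and 0.058 without 4T1 Gpr56 library 2, and DESeq2 gave 0.059. Lamb2 differed by log2 0.20 (SE 0.11), Lamb1 by -0.03 (SE 0.05) and Lamc1 by -0.07 (SE 0.06). The median of the 9 genes was log2 0.31, beside 0.00 over all genes tested.

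With all 8 libraries in 1 fit, which share 1 estimate of spread, the fold changes were nearly the same and the errors wider. There edgeR's quasi-likelihood test called 0 of 9, where 0.226% of 11970 genes (27 genes) were called. At an unadjusted p under 0.05, 3 of 9 passed (Itgb4, Lama3 and Lamb3), as did 1367 of all genes. Lamb3 had log2 0.73 (SE 0.15, adjusted p = 0.10), Lama3 0.75 (SE 0.17, adjusted p = 0.15) and Itgb4 0.93 (SE 0.35, adjusted p = 0.35). DESeq2's Wald test on the same libraries called 2 (Lamb3 and Lama3), limma-voom 0, and edgeR without a filter on low counts 3. Over all genes these settings called more too, from 57 (limma-voom) to 271 (DESeq2), against the 27 above. The biological coefficient of variation was 14.7% in this fit, 5.47% with 4T1 alone and 19.6% with TS/A alone. Leaving out TS/A empty library 1 or 2 leaves 1 library in that group, so only effect sizes are given. With either left out, the 4T1 difference was log2 0.925 for Itgb4, 0.749 for Lama3, 0.736 for Lamb3, 0.373 for Plec and 0.31 for Lama5.

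Levels of markers moved along with these genes in 4T1. The sum of 9 epithelial markers was 1751 and 1736 CPM in 4T1 empty and 2552 and 2565 CPM in 4T1 Gpr56. In 4T1 alone, 8 of the 9 were called higher, beside 11.5% of all genes tested. For 10 fibroblast markers the sum went from 16.3 and 16.2 CPM in 4T1 empty to 9.30 and 10.5 CPM in 4T1 Gpr56, that of 10 immune markers 14.9 and 13.4 CPM against 25.1 and 28.3 CPM, and that of 7 basal markers, mostly Krt14, 52.2 and 50.5 CPM against 76.1 and 76.0 CPM. The fibroblast sum in 4T1 was mostly Pdgfra and the immune sum mostly Cd14 and Cd68, while Ptprc, which marks leukocytes, was at 0 to 0.17 CPM. Their part in the result was not tested, and in bulk RNA a change in the share of cells of a type cannot be told apart from a change in RNA per cell. The 4T1 difference had no trend with transcript length, with medians from -0.04 to 0.00 in the 5 length classes.

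**Figure D4:**
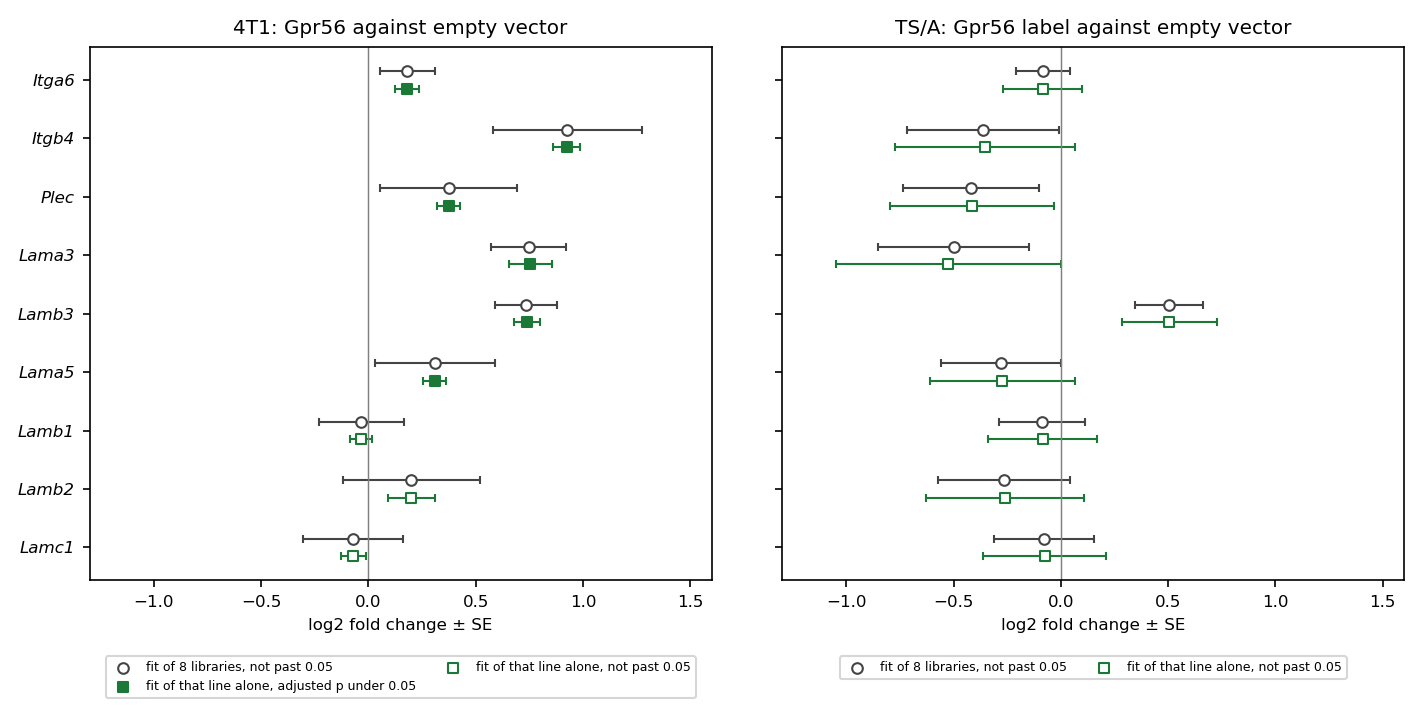
Log2 fold change with its SE (horizontal axis) for Gpr56 against empty vector in 4T1 (left) and for the same labels in TS/A (right). Circles are the fit of all 8 libraries and squares the fit of 1 line alone; filled symbols passed an adjusted p of 0.05. In 4T1 alone 6 symbols are filled, and in TS/A 0 are.

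The same contrast of labels in TS/A called 0 of 9 genes with edgeR, where 0.00835% of 11970 genes (1 gene) were called. In the fit of the TS/A libraries alone, edgeR called 0 of 9, and 0% of 11276 genes were called. At an unadjusted p under 0.05 the counts were 1 of 9 (Lamb3) and 416 genes with all libraries, and 0 of 9 and 115 genes with TS/A alone. DESeq2 also called 0 of 9 in both fits. Groups did not overlap for 2 of 9 genes, Lamb3 (higher) and Lama3 (lower), beside 21.6% of tested genes. Lamb3 differed by log2 0.50 (SE 0.16, adjusted p = 1 with edgeR), Lama3 by -0.50 (SE 0.35), Plec by -0.42 (SE 0.32) and Itgb4 by -0.36 (SE 0.35). Lama5 and Lamb2 differed by -0.28 and -0.27 (SE 0.28 and 0.31), and Lamb1, Itga6 and Lamc1 by -0.09, -0.08 and -0.08. The median of the 9 was -0.27, beside -0.01 over all genes. This label difference fell with transcript length, from a median of 0.08 among genes under 1 kb. It was -0.05 among genes of 4 to 7 kb and -0.09 among those over 7 kb, the classes that hold all 9 genes.

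The 2 empty libraries lay far apart for most of these genes. Itgb4 was 1.33 higher on the log2 scale in TS/A empty library 1 than in library 2, Plec 1.17, Lama5 1.07, Lamb2 0.91, Lamc1 0.85, Lamb1 0.69, Lamb3 0.41 and Itga6 0.31, while Lama3 was lower (-0.43). Relative to the median of genes of the same length class, these became 0.95 for Itgb4, 0.54 for Plec, 0.44 for Lama5, 0.53 for Lamb2, 0.23 for Lamc1, 0.31 for Lamb1, 0.03 for Lamb3, -0.06 for Itga6 and -0.81 for Lama3, whose gap widened. Leaving out either library leaves 1 in that group, so only effect sizes are given. Without library 1, the label difference was log2 0.73 for Lamb3, 0.47 for Itgb4, 0.41 for Lamc1 and 0.35 for Lama5. It was 0.30 for Lamb1, 0.28 for Plec and 0.27 for Lamb2. Without library 2, it was -0.88 for Plec, -0.87 for Itgb4, -0.71 for Lama5, -0.64 for Lamb2, -0.44 for Lamc1 and -0.39 for Lamb1. These 6 genes thus changed sign by which library was left out, as did Itga6 (0.083 without library 1 and -0.23 without library 2).

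The difference between the lines' contrasts, tested as an interaction, called 0 of 9 with edgeR, where 0.0668% of genes (8 genes) were called. At an unadjusted p under 0.05, 2 of 9 passed (Itgb4 and Lama3), as did 766 genes. DESeq2 and limma-voom called 0 of 9 as well. Itgb4's difference (TS/A minus 4T1) was log2 -1.29 (SE 0.49, edgeR adjusted p = 0.72) and Lama3's -1.25 (SE 0.40, edgeR adjusted p = 0.59). Lamb3, higher under Gpr56 in all libraries of both lines, differed by -0.23 (SE 0.22). Without TS/A empty library 2, which leaves 1 library in that group, the difference was -1.79 for Itgb4, -1.26 for Plec and -1.02 for Lama5. It was -0.41 for Itga6, -0.37 for Lamc1 and -0.35 for Lamb1. Without library 1 it was -0.46 for Itgb4, -0.097 for Itga6 and -0.090 for Plec. It was then positive, that is higher in TS/A, for Lama5 (0.045), Lamb1 (0.33) and Lamc1 (0.48).

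The larger contrast was between the lines. Averaged over the labels, 5 of 9 genes were lower in TS/A than in 4T1, where 32.4% of tested genes were called lower, and 1 of 9 was higher, where 32.8% were. Lama3 was 62.9-fold lower (log2 -5.98, SE 0.18, edgeR adjusted p = 6.4e-08) and Lamb3 10.4-fold lower (log2 -3.38, SE 0.12, edgeR adjusted p = 1.3e-07). These 2 chains were, of the 9 genes, the furthest below 4T1. Itgb4 was 2.72-fold lower (log2 -1.45, SE 0.25, edgeR adjusted p = 0.0012). Lama5 was 1.48-fold lower (log2 -0.57, SE 0.20, adjusted p = 0.033) and Lamb1 1.43-fold lower (log2 -0.52, SE 0.14, adjusted p = 0.012). Lamb2 was 1.62-fold higher (log2 0.69, SE 0.22, adjusted p = 0.023). Itga6 (log2 0.13, SE 0.09), Plec (-0.37, SE 0.22) and Lamc1 (-0.08, SE 0.17) did not pass.

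All 4 libraries of each line lay apart for 5 of 9 genes (Lama3, Lamb3, Itgb4 and Lamb1 lower and Lamb2 higher in TS/A), beside 58.9% of tested genes. The calls of Lama5 and Lamb2 were near the threshold. Lama5's was lost without any 1 of the 4T1 libraries or of the TS/A Gpr56 libraries (adjusted p 0.071 to 0.10) and on library totals without TMM factors (0.057), and Lamb2's without any 1 of the 4T1 libraries or TS/A Gpr56 library 1 (0.060 to 0.097). Without TS/A empty library 1, Plec stood at log2 -0.71, Lamc1 at -0.32 and Itga6 at 0.049. Without library 2, Plec stood at -0.14, Lamc1 at 0.10 and Itga6 at 0.20. With the empty vector alone, 3 of 9 passed, where 47.4% of genes did: Lama3 (log2 -5.35, SE 0.25), Lamb3 (log2 -3.27, SE 0.16) and Lamb2 (log2 0.93, SE 0.31, adjusted p = 0.040). Without TS/A empty library 1, Itgb4 stood at log2 -1.62 and Lama5 at -0.90, and without library 2 at -0.29 and 0.16. The Lamb2 call was lost without library 1 (log2 0.40) and without any 1 of the 4T1 libraries (0.89 to 0.96, adjusted p 0.070 to 0.16), and missed the threshold on library totals without TMM factors (edgeR adjusted p = 0.0502) and with limma-voom (adjusted p = 0.062). The epithelial marker sum (205 to 270 CPM in TS/A) and a fibroblast marker sum of 141 to 354 CPM in TS/A, against 9.30 to 16.3 CPM in 4T1, differed between the lines in the same libraries, and their part in the result was not tested. The fibroblast sum in TS/A was mostly Col1a1 (131 to 328 CPM), while Col1a2, Col3a1, Dcn, Lum, Thy1 and Fap were at or near 0 in both lines.

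Within the laminin families the balance of chains also differed between the lines. The ratio of Lamb3 to Lamb1 in summed RPKM was 0.281 and 0.268 in 4T1 empty, 0.481 and 0.451 in 4T1 Gpr56, 0.0369 and 0.0434 in TS/A empty, and 0.0608 and 0.0589 in TS/A labelled Gpr56. The lines differed by -2.87 in mean log2 ratio, with every TS/A library below every 4T1 library. The ratio of Lama3 to Lama5 was 0.191 to 0.291 in 4T1 and 0.00348 to 0.00996 in TS/A, a log2 difference of -5.38. That size depends on the constant added to RPKM, as Lama3 in TS/A was at 0.0589 to 0.115 RPKM. With 0.1 added in place of 0.01 it was -4.44. Itgb4 to Itga6 was 0.194 to 0.329 in 4T1 and 0.0597 to 0.120 in TS/A, a log2 difference of -1.66. Lamb2 to Lamb1 went the other way, 0.0370 to 0.0639 in 4T1 and 0.0678 to 0.108 in TS/A, a log2 difference of 1.03. Each of the 4 ratios had a two-sided exact permutation p of 0.0286 over 4 against 4 libraries, the smallest this design allows. It was also 0.0286 after Benjamini-Hochberg adjustment over the 4. The 4 libraries of a line are 2 vector groups of 2 and cannot be taken as 4 independent units. This p therefore restates only that the lines did not overlap in each ratio, for genes chosen with earlier results known. Within 4T1, Itgb4 to Itga6 was 0.199 and 0.194 in the empty pair, against 0.329 and 0.327 in the Gpr56 pair, so the integrin pair was more even in the Gpr56 libraries.

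The transcripts behind these sums are the deposited tables' own rows, and the sources used here do not give how reads shared by transcripts were divided. Lama3 had 2 rows, Lama3-201 of 10548 nt and Lama3-202 of 5551 nt, which starts inside the gene. Lama3-202 held 98.7% and 99.1% of the Lama3 reads in 4T1 empty and 98.9% and 96.1% in 4T1 Gpr56. In TS/A it held 78.6%, 73.3%, 73.3% and 87.5%, from 8 to 15 reads a library, which limits the precision of these shares. Itga6-201 held 85.8% to 93.7% of the Itga6 reads and Itgb4-202 held 77.4% to 90.6% of the Itgb4 reads over the 8 libraries, without a split by line. Plec was the most divided. Plec-201 held 63.0%, 52.3%, 67.5% and 50.4% of Plec reads in the 4T1 libraries (empty 1 and 2, then Gpr56 1 and 2) and 54.2%, 38.0%, 39.8% and 48.0% in the TS/A libraries in the same order. Plec-206, which starts 5′ of Plec-201, held 18.4%, 24.6%, 15.7% and 35.7% in 4T1 and 25.6%, 47.2%, 44.1% and 37.0% in TS/A. The ranges of the lines overlapped for both Plec transcripts.

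The other genes of this machinery were taken from 5 lists. In the fit of 4T1 alone, 11.5% of all genes tested were called higher and 11.3% lower with Gpr56. Among 7 tested hemidesmosome partners and plakins, 3 were higher and 1 was lower in that fit. Krt14, a basal keratin that plectin can bind, rose by log2 0.62 (SE 0.07), Fermt1, an integrin activator, by 0.25 (SE 0.06), and Erbin, a β4-binding scaffold protein, fell by 0.24 (SE 0.07). Of 8 other laminin receptors, 2 were higher (Dag1, the dystroglycan gene, 0.21, and the syndecan Sdc1, 0.18) and 2 lower (Rpsa, -0.28, and the integrin Itga7, -0.67). Of 6 tested network partners, which crosslink laminin in the basement membrane, Agrn rose by 0.36 (SE 0.06) and Col4a5 fell by 2.54 on the log2 scale (SE 0.19). Of 4 tested proteases that can cut laminin chains or activate those that do, 3 were higher, among them the urokinase gene Plau (0.57, SE 0.06) and Mmp14 (0.20, SE 0.07). In the 8-library fit, only Col4a5 of these lists passed (log2 -2.53, edgeR adjusted p = 0.030), where 0.226% of all genes did. The hemidesmosome collagen gene Col17a1 was at 0.06 to 0.20 RPKM in all libraries and Krt5 at 0 to 0.04 RPKM.

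Under the TS/A labels 0 genes of these lists passed with edgeR, and the 2 genes of each of 4 lists with the highest mean CPM over all 8 libraries differed as follows on the log2 scale: Dst by -0.10 and Macf1 by -0.12, Rpsa by 0.19 and Itgb1 by 0.02, Col4a1 by -0.24 and Col4a2 by -0.18, and Bmp1 by 0.01 and Plau by 0.45. In the interaction, Krt14 passed (log2 -1.95, SE 0.23, adjusted p = 0.037), from 46.7 and 46.8 CPM in 4T1 empty to 71.7 and 72.5 CPM in 4T1 Gpr56 and from 1.93 and 1.72 CPM to 0.76 and 0.69 CPM in TS/A. Between the lines, 32.4% of all genes tested were called lower and 32.8% higher in TS/A, the shares to set beside the counts that follow. Of the hemidesmosome partners, 3 of 7 were lower in TS/A, with Krt14 at log2 -5.64 and Fermt1 at -6.20. Of the 8 receptors, Itga3, the α3 subunit of another laminin integrin, was lower (-1.42), as was Bcam (-3.08), whereas Sdc4 was higher (0.42), and in all 4 were lower and 1 higher. Itgb1 differed by 0.00 (SE 0.08). Of 6 network partners 4 were lower, with Col4a2 at -2.43 and Agrn at -1.79, and 2 higher, with Nid1, which bridges laminin to type IV collagen, at 7.94 and Col4a5 at 3.53. Of 5 proteases, Mmp2 (6.35) and Plat (2.23) were higher and Plau (-0.76) and Bmp1 (-0.63) lower.

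The genes closest in pattern to Itgb4 and to Lamb3 were found by Pearson correlation of log2 CPM over the 8 libraries, among 8740 genes with a mean of at least 10 CPM. For Itgb4 they were Ncoa4 and Dab2ip (both r = 0.998), Rapgef1 (r = 0.997), Zdhhc5 (r = 0.996) and Arhgap27 (r = 0.995). For Lamb3 they were Arrdc1 (r = 0.998), Samd10, Tbkbp1 (both r = 0.997), Acap1 and Ddb1 (both r = 0.996). Points in these correlations share the line, the vector group and the library's depth and length profile, and the ranges differ widely: Ncoa4 spanned 103 to 168 CPM where Itgb4 spanned 16.1 to 96.3 CPM.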

How the data were processed

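Per the labels' protocols, RNeasy Mini Kit RNA went into libraries of the TruSeq RNA Library Preparation Kit v2. That kit does not mark strand. Hsd11b1 and G0s2 overlap Lamb3 on the opposite strand, had at most 21 and 3 reads a library and lie before the start of Lamb3-201, and Plec overlaps Parp10 on the same strand. Each deposited table holds 65042 transcript rows and gives, per the file headers, whole-number read counts and RPKM. How the authors aligned and counted reads, and on which build and annotation, is not given in the sources used here. Members and lists were chosen with earlier results of these data known. One gene of the lists is not reported here.

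Counts were summed by gene name, the trailing number removed (22026 genes, 15815 with reads). In GENCODE M21 (GRCm38), the source of coordinates, each of the 9 genes' rows lay in 1 gene. Tests used edgeR 4.0.16 in R 4.3.3: filterByExpr, TMM scaling, and quasi-likelihood tests in 1 fit of the 8 libraries or of 1 line alone, with Benjamini-Hochberg adjustment over all genes tested and a threshold of 0.05. The SE of a log2 fold change is its size over the square root of F. Marker sums are plain CPM, and marker lists held 9 epithelial, 7 basal, 10 fibroblast, 10 endothelial, 5 Schwann cell and 10 immune genes. The endothelial sum was 12.1 to 18.9 CPM and the Schwann cell sum 0.31 to 4.00 CPM over the 8 libraries. Log2 ratios used deposited RPKM summed per gene plus 0.01, and ratios given as plain numbers are without it. Levels in the shallowest library have a floor of 0.285 CPM (3 reads), which covers counting error only.

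All 9 genes were described in every comparison. From the other lists, up to 2 genes each way with the smallest p past the threshold were named, otherwise the 2 most abundant by mean CPM over the 8 libraries (given for the TS/A labels); Col17a1 and Krt5 were chosen after their values were seen. Genes of like pattern were the 5 with the highest r and a mean of at least 10 CPM. Alternatives were DESeq2 1.42.0 size factors and Wald test, library totals, limma 3.58.1 voom, no filter or a filter of 10 CPM in 2 libraries, a replicate block, genes by GENCODE identifier, and leaving out each library. The fits were tested on simulated data.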

Additional observations from a re-analysis of the deposited data

Results flagged for a closer look

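Lama3 was set apart because its 2 Gpr56 libraries lay above both empty libraries in 4T1 (48.4 and 45.5 against 31.1 and 24.9 CPM) and below both in TS/A (0.571 and 0.369 against 0.574 and 0.808 CPM). The log2 fold changes differed by -1.25 (TS/A minus 4T1). The interaction test of that difference did not pass (edgeR adjusted p = 0.59), and the TS/A values rest on 8 to 15 reads a library.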

How the results depend on the processing

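Most of the dependence lay in the TS/A empty libraries. Leaving out 1 library at a time, log2 differences that changed sign under the TS/A labels ranged from -0.23 to 0.083 for Itga6, -0.87 to 0.47 for Itgb4, -0.88 to 0.28 for Plec, -0.71 to 0.35 for Lama5, -0.39 to 0.30 for Lamb1, -0.68 to 0.27 for Lamb2 and -0.44 to 0.41 for Lamc1. With TS/A alone the ranges were -0.21 to 0.076, -0.85 to 0.46, -0.86 to 0.28, -0.69 to 0.35, -0.37 to 0.29, -0.66 to 0.26 and -0.42 to 0.41, in the same order. All 7 turned without TS/A empty library 1, and Lamb2 also without TS/A Gpr56 library 2 (0.054, and 0.062 with TS/A alone). The interaction ranged from -1.02 to 0.045 for Lama5, -0.35 to 0.33 for Lamb1, -0.88 to 0.072 for Lamb2 and -0.37 to 0.48 for Lamc1. Between the lines with the empty vector, Plec ranged from -0.67 to 0.49, Lama5 from -0.90 to 0.16 and Lamc1 from -0.56 to 0.29, and over both labels Lamc1 from -0.32 to 0.10. In 4T1 Lamc1 ranged from -0.14 to 0.0010, and from -0.14 to 0.0036 with 4T1 alone. Under other settings, values near 0 turned: the interaction of Lamc1 (0.060 with limma-voom, 0.0052 without a filter, 0.051 with the replicate block), Lamb1 in 4T1 on library totals (0.00022, and 0.00029 with 4T1 alone), and Plec between the lines with the empty vector (-0.10 with limma-voom, -0.049 with the block). The cause of these changes was not tested.

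Leaving out 1 library at a time, with the lone library of a group assumed to vary like the other groups, the count of the 9 genes called ranged from 0 to 5 in 4T1, 5 to 6 in 4T1 alone, 0 to 6 under the TS/A labels, 0 to 3 in TS/A alone, 0 to 6 in the interaction, 2 to 7 between the lines with the empty vector and 4 to 8 over both labels. Over all genes the counts ranged from 0 to 1285, 1403 to 2748, 0 to 2933, 4 to 1140, 0 to 2391, 3335 to 7853 and 6601 to 9327, in the same order. The 4 ratios kept their direction, from -3.00 to -2.72 (Lamb3 to Lamb1), -5.68 to -5.18 (Lama3 to Lama5), 0.93 to 1.19 (Lamb2 to Lamb1) and -1.85 to -1.51 (Itgb4 to Itga6), but 3 libraries against 4 cannot give an exact p under 0.0571. With all libraries and 0.1 added to RPKM, Lama3 to Lama5 moved further, to -4.44.

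DESeq2's Wald test called 2 of the 9 genes in 4T1 and 5 between the lines with the empty vector, and 271 genes in 4T1, 10 under the TS/A labels, 66 in the interaction, 1549 in 4T1 alone and 3 in TS/A alone. Without a filter on low counts these were 3 and 5 of the 9 genes, and 266, 8, 60 and (TS/A alone) 4 genes. Limma-voom, run on the 8 libraries only, called 57 genes in 4T1 and 0 in the interaction; library totals called 0 genes under the TS/A labels and 4 in the interaction. Depth limits Lama3 in TS/A (8 to 15 reads a library). Summed RPKM put the TS/A share of Lama3-202 at 87.1%, against 78.2% of reads. DESeq2 size factors, a 10 CPM filter and GENCODE identifiers moved no count of the 9 genes. Replicate numbers were tried as a replicate block, although nothing says that they pair the libraries: replicate differences correlated at -0.02 between the groups of 4T1 and 0.31 in TS/A. The block called 1 of the 9 genes in 4T1 (Lamb3) and 5 between the lines with the empty vector, and 130 genes in 4T1, 37 in the interaction and 26 in TS/A alone. Beside each count of 5, all the settings of this paragraph called between 4396 and 6042 genes between the lines with the empty vector. The main settings called 5674 genes there (47.4% of 11970 tested).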
